A study of Mus musculus with 6 samples.

Results

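The proteasome is the protease complex that degrades proteins marked with ubiquitin, and its subunit genes were followed here in C2C12 cells, an immortalized mouse myoblast line, during myogenic differentiation. Members were all genes whose array annotation carries a symbol of the Psma, Psmb, Psmc or Psmd families, without the immunoproteasome subunits Psmb8, Psmb9 and Psmb10, together with Psme1 to Psme4 and Psmf1. Only probe sets annotated to a single gene were used. This gave 40 of the 18193 genes named in this way and 88 of the 45037 probe sets tested. Psme2 had no such probe set, because the one that detects it is shared with Psme2b.

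Differentiated cells were harvested on day 6 in 2% horse serum, and proliferating cells were kept in 20% serum, with 3 arrays for each group. No genotype differed between the groups. The RNA on each array combined pools of several plates, set up on successive days, so the spread between arrays is that of pools and not of single cultures. Low-serum cultures hold unfused cells beside myotubes, and in such bulk RNA fewer cells of a type and less RNA per cell cannot be told apart. The values are linear MAS 5.0 signals, the summary of a probe set over its probes, and the test was made on log2(signal + 15) with limma. The brightest probe set stood for its gene, and calls were made where the p, adjusted over all probe sets by the Benjamini-Hochberg method, was under 0.05.

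Marker genes followed the labels. All 6 myotube markers were higher in differentiated cells, with a summed signal of 51433 to 54460 on the differentiated arrays and of 627 to 767 on the proliferating arrays. All 5 measured proliferation markers were lower, at summed signals of 1336 to 1394 in differentiated and 14038 to 14237 in proliferating cells. None of the genes listed as markers of undifferentiated reserve cells (Pax7, Cd34 and Myf5) passed. Their summed signals were 757 to 884 in differentiated and 733 to 905 in proliferating cells. Pax7 lay at background on all 6 arrays. Most of the sum was Myf5 (649 to 691 in differentiated and 637 to 803 in proliferating cells). The authors name Myf5 among the specification markers that C2C12 myoblasts express, so the sum does not measure reserve cells. Of the adipocyte markers, Adipoq and Fabp4 were measured and did not pass, at 81.7 to 142 in differentiated and 19.0 to 80.9 in proliferating cells. The ratio of 3' to 5' signal of the Gapdh controls, a sign of RNA quality, was 0.789 to 0.833 in differentiated and 0.822 to 0.855 in proliferating cells. For the beta-actin controls it was 1.07 to 1.11 in differentiated and 1.23 to 1.31 in proliferating cells. The part of this difference in the results below was not tested.

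The proteasome has a barrel-shaped core particle of stacked alpha and beta rings, and the proteolytic sites lie on beta subunits inside the barrel. A regulatory particle caps the barrel. Its base holds a ring of ATPases that unfold substrates and thread them into the core, and its lid holds the enzyme that removes ubiquitin chains. Dividing cells use the proteasome to destroy cyclins and other cell cycle proteins, and in skeletal muscle it degrades myofibrillar proteins during atrophy. When proteasome activity is low, the transcription factor Nrf1, encoded by Nfe2l1, is known to raise the subunit genes together.

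Proteasome transcripts were moderately lower or little changed in differentiated cells. Of the 40 members 9 were lower, 0 were higher and 31 did not pass, while at an unadjusted p under 0.05 there were 11 lower and 2 higher. Of all 18193 genes, 9.00% were called lower and 8.63% higher. Most proteasome genes gave bright signals, so the genes above background are a closer comparison. These genes were not matched to the members in brightness, and the part of brightness in the shares below was not tested. Background was the brightest of 27 probe sets for bacterial transcripts, which lay at 51.9 to 87.0 on the 6 arrays. Of 11216 genes above it on every array of a group, 14.4% were called lower and 13.7% higher, against 9 lower of the 38 members (23.7%). The median log2 fold change, differentiated over proliferating, was -0.16 over the 40 members and 0.06 over all genes. With quantile normalization the median was -0.07 over the 40 members and 0.01 over all genes. With the signals as deposited, the median over the 38 members above background was -0.15, and over all genes above background 0.06. The fitted change was below 0 in 27 of these 38 members (71.1%) and in 45.6% of the genes above background. With the signals as deposited none of the 9 called genes reached 1.5-fold, and the range of fitted changes over the 38 members above background was -0.51 to 0.28.

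**Figure D1:**
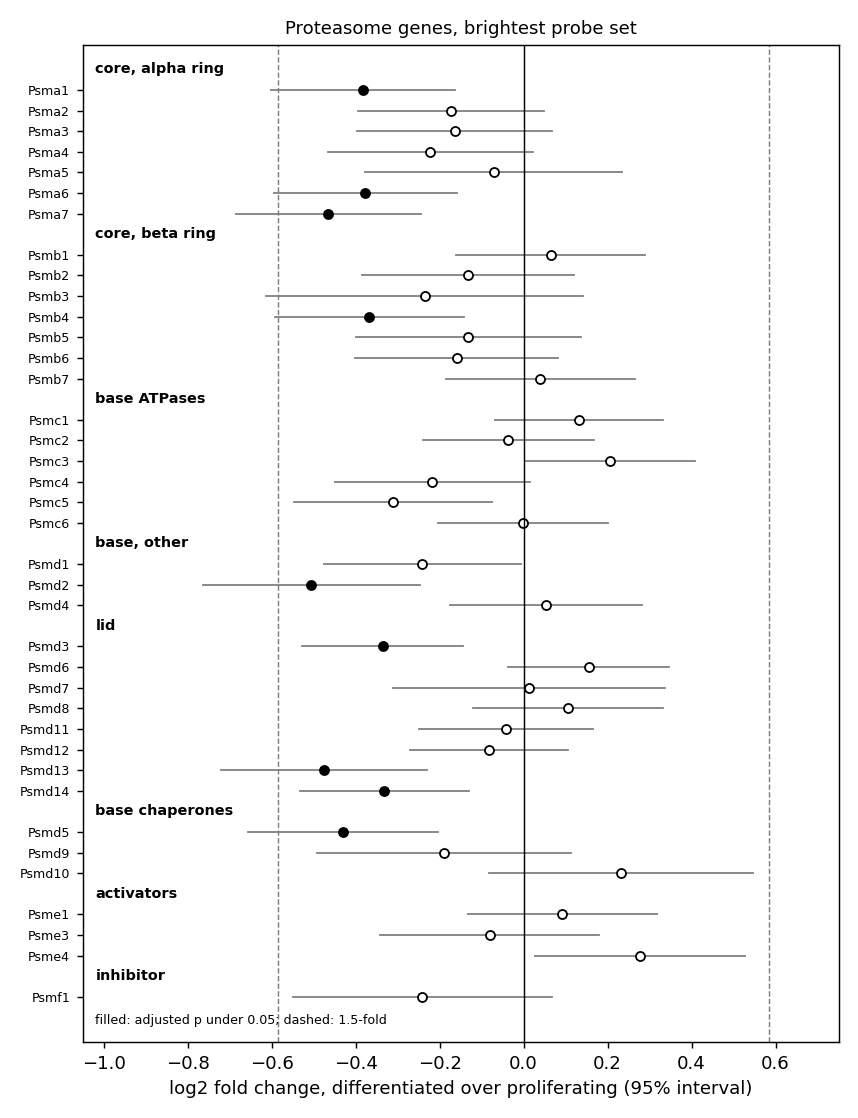
Log2 fold change (horizontal axis, differentiated over proliferating, 3 arrays each) of the 38 proteasome genes above background, by subcomplex (vertical axis), with 95% intervals from limma. Filled circles have an adjusted p under 0.05; all 9 of them lie left of 0 and inside the dashed lines at 1.5-fold.

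The groups did not overlap in 12 members that were lower in differentiated cells and in 3 that were higher (Psmc3, Psmd6 and Psmd10). All 15 were above background. Over all genes, such separation was seen in 15.4% for lower and 18.0% for higher values, and over the genes above background in 22.5% for lower and 25.1% for higher values. Psma8 and Psmb11 encode the testis and thymus variants of core subunits and were not above background on every array of either group. Psma8, the dimmest member, had signals of 11.6, 8.90 and 4.20 on the differentiated arrays and of 23.6, 7.70 and 44.0 on the proliferating arrays. It was at background on all 6 arrays. Psmb11 had 29.1, 41.8 and 69.9 in differentiated and 80.9, 50.8 and 49.2 in proliferating cells, above background on differentiated replicate 3 alone. Both count among the 31 that did not pass, and no fold change is read for them singly. Their fitted values do enter the medians over all members and over all core genes. For the other 29 members that did not pass, the 95% interval of the change stayed within 1.5-fold in either direction in 28. The exception was Psmb3, whose interval reached -0.61.

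Promoter stretches of 5 members are shown to give examples of the motif matches counted below, from genes that fell and genes that did not pass. RefSeq promoters (GRCm38.p6, from 250 bases upstream to 50 downstream of the start) were matched by symbol for 33 of the 40 members. Both strands were searched for CCAAT, the box bound by NF-Y, for TGACNNNGC, the core of the antioxidant response element bound by Nrf1 and Nrf2, and for GCATGCGC, from the site of the respiratory factor NRF-1, which is encoded by another gene than Nfe2l1. Matches of different motifs may overlap. Below, the match is in capitals and each line is read 5' to 3' on the strand of the gene. Psma1 and Psma7 were lower in differentiated cells, and Psmb5, Psmc6 and Psmd9 did not pass. Members that did not pass also hold a CCAAT box, among them Psma2, Psma3, Psmb3 and Psmc1.
Psma1 CCAAT box, chr7:114276190-114276234, minus strand: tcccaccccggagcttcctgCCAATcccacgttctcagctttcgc
Psma7 CCAAT box, chr2:180042636-180042680, minus strand: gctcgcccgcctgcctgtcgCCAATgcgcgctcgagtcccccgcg
Psmb5 response element, chr14:54618014-54618062, minus strand: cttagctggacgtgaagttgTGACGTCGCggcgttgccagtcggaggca
Psmc6 response element (reverse orientation), chr14:45329577-45329625, plus strand: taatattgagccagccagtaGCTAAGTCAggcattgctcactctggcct
Psmd9 response element, chr5:123228139-123228187, plus strand: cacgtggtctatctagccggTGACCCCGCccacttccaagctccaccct

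The response element core was found in 6 of the 33 members (18.2%) and in 14.0% of 27025 genes with a promoter sequence. These 6 were Psmb5, Psmb6, Psmc6, Psmd9, Psmd12 and Psme4, and none of the 8 called genes with a promoter sequence was among them. The CCAAT box was in 13 of 33 members (39.4%) and 41.1% of all genes, with 7 of 12 core genes (58.3%), 5 of 17 regulatory particle genes (29.4%) and 4 of the 8 called genes (Psma1, Psma6, Psma7 and Psmd14). The NRF-1 letters were found in Psma2 and Psmc5, against 3.05% of all genes. A match is only a match of letters, and these shares carry no test.

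The alpha ring forms the outer gate of the core particle, through which substrates enter. Of its 8 genes 3 were lower in differentiated cells, and the fitted changes of the 4 others above background were also below 0. Psma7 had signals of 1944, 1688 and 1963 on the differentiated arrays and of 2391, 2815 and 2533 on the proliferating arrays. Every differentiated value lay below every proliferating one, and limma put the log2 difference at -0.46, with a standard error (SE) of 0.10 and an adjusted p of 0.0078. A second probe set of Psma7 of similar brightness was at -0.37 with separate groups but did not pass (adjusted p = 0.12). Psma1 was at 1380, 1454 and 1472 in differentiated and at 1849, 2096 and 1699 in proliferating cells, a change of -0.38 (SE 0.10, adjusted p = 0.024). The groups of Psma1 were separate too, and its highest array was proliferating replicate 2. Psma6 had 3576, 3663 and 3798 in differentiated and 4812, 5299 and 4284 in proliferating cells at its brightest probe set, a change of -0.38 (SE 0.10, adjusted p = 0.026), but its other probe sets did not follow. Psma5 changed least, at -0.07 (SE 0.14, adjusted p = 0.84). Its signals of 2603, 2249 and 3473 in differentiated and 2804, 3178 and 2651 in proliferating cells overlapped. A second bright probe set of Psma5 was at -0.33 (adjusted p = 0.061), so that the 2 differ in size. Psma2, Psma3 and Psma4 lay between -0.22 and -0.16 and did not pass.

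The beta ring carries the proteolytic sites, on Psmb5, Psmb6 and Psmb7, which cut after hydrophobic, acidic and basic residues in that order. None of these 3 genes passed. Psmb5 had signals of 3344, 3461 and 4237 on the differentiated arrays and of 3721, 4706 and 3690 on the proliferating arrays, and its 95% interval was -0.40 to 0.14. Psmb6 was at 2399, 2221 and 2567 in differentiated and 2469, 3129 and 2471 in proliferating cells, with an interval of -0.40 to 0.08. Psmb7 was at 8140, 7966 and 9033 in differentiated and 7621, 8757 and 8077 in proliferating cells, with an interval of -0.19 to 0.26, and it was the brightest member. In all 3 genes the groups overlapped. The only beta gene called was Psmb4, a structural subunit without a catalytic site, at 4079, 3892 and 4301 in differentiated and 4995, 5988 and 4915 in proliferating cells. Its groups were separate, with a change of -0.37 (SE 0.10, limma adjusted p = 0.034). Psmb1 had the highest change in the ring, 0.07 (adjusted p = 0.79), with signals of 5140, 5681 and 5491 in differentiated and 4599, 5461 and 5574 in proliferating cells. Psmb2 and Psmb3 were at -0.13 and -0.24 and did not pass.

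**Figure D2:**
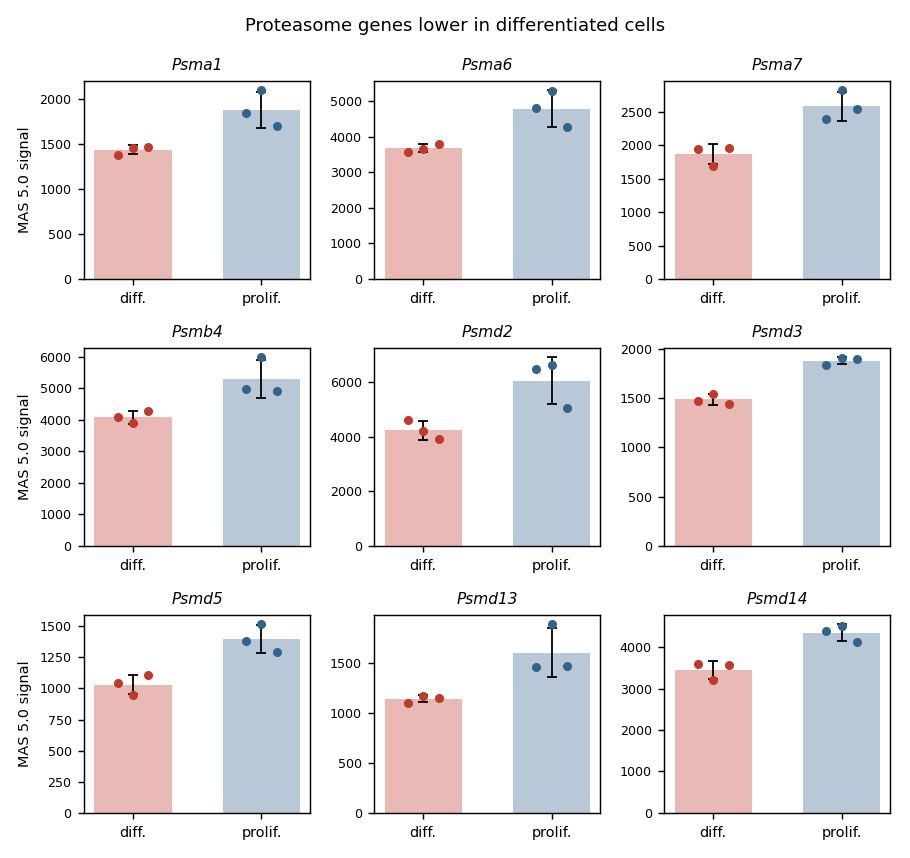
MAS 5.0 signal (vertical axis, linear) of the 9 proteasome genes called lower, in differentiated (left) and proliferating (right) cells. Each bar gives the mean with its SD, and the 3 circles are single arrays; in all 9 the highest differentiated array lies below the lowest proliferating one, as for Psma7 at 1963 against 2391.

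The base of the regulatory particle was little changed in its ATPases. None of the 6 genes Psmc1 to Psmc6 passed, and their median log2 fold change was -0.02. Psmc3 had the highest change, 0.21 (SE 0.09, limma adjusted p = 0.21), with signals of 4429, 4258 and 4855 in differentiated and 4005, 3983 and 3736 in proliferating cells. The groups of Psmc3 do not overlap although it did not pass. Psmc5 had the lowest, -0.31 (SE 0.11, adjusted p = 0.091), with 2265, 2043 and 2288 in differentiated and 2735, 3104 and 2390 in proliferating cells. Psmc5 too had separate groups. Psmc1, Psmc2, Psmc4 and Psmc6 were at 0.13, -0.04, -0.22 and -0.00.

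Psmd1, Psmd2 and Psmd4 are the other base subunits, of which Psmd1 and Psmd2 are the large scaffolds and Psmd4 is a ubiquitin receptor. Psmd2 fell to 4603, 4206 and 3907 in differentiated cells, against 6472, 6622 and 5062 in proliferating cells. On the log2 scale this was -0.51 (SE 0.12, limma adjusted p = 0.012), the lowest among the 38 members above background. Psmd1 was at -0.24 (adjusted p = 0.21) with separate groups. Psmd4 was at 0.05 (adjusted p = 0.84), with signals of 3146, 3093 and 3764 in differentiated and 2944, 3408 and 3261 in proliferating cells.

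Of the 8 lid genes 3 were lower. Psmd13, a structural subunit, fell to 1104, 1170 and 1150 in differentiated cells, against 1457, 1887 and 1470 in proliferating cells, a change of -0.48 (SE 0.11, limma adjusted p = 0.013). Psmd14 encodes the metalloprotease that cuts ubiquitin chains from substrates. It was at 3593, 3208 and 3569 in differentiated and 4400, 4522 and 4129 in proliferating cells, a change of -0.33 (SE 0.09, adjusted p = 0.033). Psmd3 was at 1474, 1546 and 1442 in differentiated and 1841, 1904 and 1897 in proliferating cells, a change of -0.34 (SE 0.09, adjusted p = 0.023). In all 3 the groups were separate. Psmd6 had the highest change in the lid, 0.16 (SE 0.09, adjusted p = 0.35), with 5272, 5113 and 4934 in differentiated and 4502, 4663 and 4585 in proliferating cells. Psmd7, Psmd8, Psmd11 and Psmd12 lay between -0.08 and 0.11 and did not pass. Psmd11 has 8 probe sets, and none of them passed.

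Psmd5, Psmd9 and Psmd10 (gankyrin) carry subunit names but encode chaperones that assemble the base and leave the finished complex. Psmd5 fell to 1041, 948 and 1105 in differentiated cells, against 1380, 1515 and 1291 in proliferating cells, a change of -0.43 (SE 0.10, limma adjusted p = 0.015). Psmd10 was at 367, 381 and 387 in differentiated and 286, 318 and 359 in proliferating cells. Its groups were separate, but its change of 0.23 (SE 0.14, adjusted p = 0.40) did not pass. Psmd9 was at -0.19 (adjusted p = 0.50).

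Psme1, Psme3 and Psme4 encode activators that open the core in place of the regulatory particle, and Psmf1 encodes a protein known as a proteasome inhibitor. None of these 4 genes passed. Psme4 had the highest change of all members above background, 0.28 (SE 0.12, limma adjusted p = 0.17). Its signals of 1914, 1917 and 1631 in differentiated and 1542, 1293 and 1680 in proliferating cells overlap. Psme1 and Psme3 were at 0.09 and -0.08. Psme3 had signals of 518, 598 and 516 in differentiated and 605, 535 and 587 in proliferating cells. A second probe set of Psme3 of similar brightness was at -0.35 (adjusted p = 0.083) with separate groups, so the 2 differ in size. Psmf1 was at 421, 421 and 421 in differentiated and 504, 591 and 420 in proliferating cells, a change of -0.24 (adjusted p = 0.37). The dimmer probe sets of Psmf1 went the other way, at 0.13, 0.61 and 0.79, and none of them passed.

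The core and the regulatory particle were set side by side. Of 16 core genes 4 were lower and 0 higher, and of 20 regulatory particle genes 5 were lower and 0 higher. The median log2 fold change was -0.20 in the core (-0.17 over its 14 genes above background) and -0.06 in the regulatory particle (-0.04 over 17 genes without the base chaperones). The core median minus the regulatory median was -0.14, and -0.11 with dim probe sets left out. The mean log2(signal + 15) over the 14 core genes was 11.58, 11.54 and 11.77 on the differentiated arrays and 11.75, 11.99 and 11.76 on the proliferating arrays. The groups overlap, with differentiated replicate 3 above 2 of the proliferating arrays and proliferating replicate 2 well above the rest. Over the 20 regulatory particle genes this mean was 11.11, 11.03 and 11.12 in differentiated and 11.17, 11.29 and 11.14 in proliferating cells, and the groups do not overlap. The core mean minus the regulatory mean was 0.47, 0.52 and 0.66 in differentiated and 0.58, 0.69 and 0.62 in proliferating cells. It averaged 0.55 ± 0.10 in differentiated and 0.63 ± 0.06 in proliferating cells (SD, n = 3 each), a difference of -0.08 that is smaller than the SD of the differentiated arrays, and the groups overlap. The lower core median was therefore not separated from the spread between arrays. Without proliferating replicate 2 the core median was -0.11, and without differentiated replicate 3 it was -0.29.

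**Figure D3:**
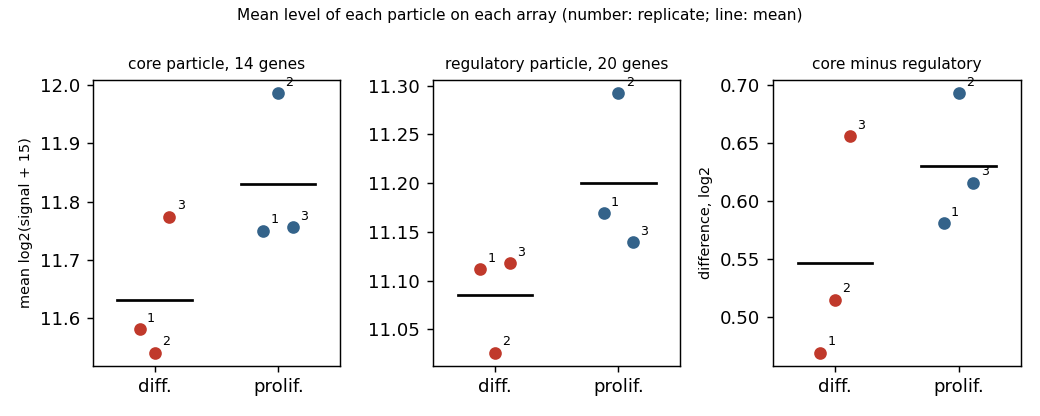
Mean log2(signal + 15) of the core genes (left), of the regulatory particle genes (middle) and their difference (right) on each array, with the replicate number beside each circle and the group mean as a line. The vertical axes do not start at 0; core means run from 11.54 to 11.99, and replicates 3 (differentiated) and 2 (proliferating) are the highest of their groups.

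Several genes are covered by more than 1 probe set, and these did not always move together. Among the 88 probe sets of the members, 10 were lower, 3 higher and 75 did not pass, while 12.6% of all probe sets passed in either direction. The 3 higher probe sets all belong to genes whose brightest probe set was not higher. For Psma6 a dimmer _x_at probe set had signals of 388, 426 and 457 in differentiated and 301, 222 and 280 in proliferating cells, a rise of 0.64 (SE 0.16, limma adjusted p = 0.017). The second brightest probe set of Psma6, a plain _at set, was at -0.08 (adjusted p = 0.75), and the brightest, which was called lower, is an _x_at set as well. The suffix _x_at marks probe sets with probes that may bind other transcripts, so the direction for Psma6 is not settled by these arrays. For Psmc6, an _s_at probe set rose by 0.49 (SE 0.13, adjusted p = 0.029), with 671, 646 and 725 in differentiated and 519, 402 and 532 in proliferating cells, whereas the brightest probe set was at -0.00. The suffix _s_at marks probe sets that can detect several genes. For Psmd6, an _a_at probe set, whose probes match transcripts of the same gene, rose by 0.53 (SE 0.16, adjusted p = 0.046), with 355, 323 and 328 in differentiated and 222, 249 and 214 in proliferating cells. This call was weak, since it held under 4 alternatives and was lost under 15, among them quantile normalization, scaling to the same median or 75th percentile, a pseudocount of 1, the replicate block and every fit without 1 array except that without proliferating replicate 2. The rise of the Psmc6 set was lost under 9 alternatives and that of the Psma6 set under 6, scaling to the same median included for both. For Psmd13, a plain _at probe set was at 54.7, 40.4 and 8.20 in differentiated and 147, 197 and 167 in proliferating cells, and it was called lower (adjusted p = 0.0094). Only 1 of these differentiated values was above background, so no single fold is given. The fitted log2 change moved between -2.62 with a pseudocount of 1 and -1.42 with the 40th percentile as pseudocount, while the change at the brightest probe set of Psmd13 was -0.48.

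**Figure D4:**
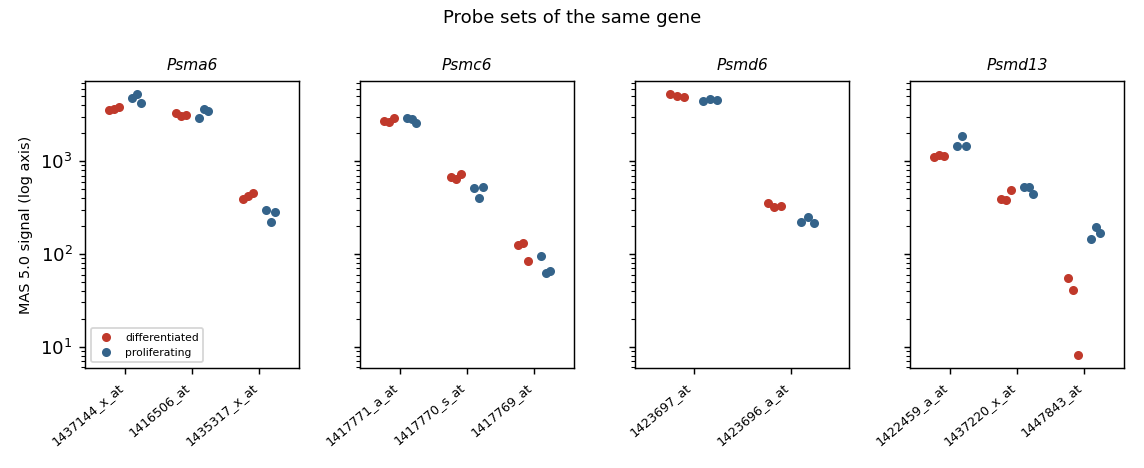
MAS 5.0 signal (vertical axis, log scale) at the probe sets of 4 genes that were above background on all arrays of at least 1 group, with 3 differentiated (left) and 3 proliferating (right) arrays at each. Psma6 is lower in differentiated cells at the first probe set (-0.38) and higher at the third (0.64), while Psmd13 is lower at the first (-0.48) and at the third, where only 1 of the 3 differentiated signals (54.7, 40.4 and 8.20) is above background.

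Genes that assemble or serve the proteasome were read from separate lists. Of 6 listed assembly factors 5 were measured, and Psmg1, a chaperone that pairs with Psmg2 to build the alpha ring, was lower. Psmg1 fell to 678, 633 and 643 in differentiated cells, against 1155, 1290 and 1286 in proliferating cells, a change of -0.92 (SE 0.10, limma adjusted p = 4.1e-05). Its partner Psmg2 was at -0.13 (adjusted p = 0.70), and Psmg3, Psmg4 and the maturation factor Pomp at 0.33, -0.28 and 0.08 did not pass either.

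Of 21 listed cofactors 18 were measured, of which 2 were higher, 2 lower (11.1%) and 14 did not pass. Of all genes above background, 13.7% were called higher and 14.4% lower, so the list as a whole held no excess of calls. Nfe2l1 rose to 3392, 3193 and 3196 in differentiated cells, against 1747, 1717 and 1659 in proliferating cells, a change of 0.93 (SE 0.09, limma adjusted p = 1.0e-05). Nfe2l2, which encodes Nrf2, was at -0.06 (adjusted p = 0.79). The Nrf1 transcript was thus higher while 0 of the 40 subunit genes were higher, and Nrf1 protein and its processing were not measured. Ngly1, which encodes the enzyme that removes sugars from Nrf1, was at 0.36 (adjusted p = 0.25). Zfand5, an activator of the proteasome in muscle atrophy, rose to 4090, 3892 and 3974 in differentiated cells, against 2792, 2658 and 2779 in proliferating cells, a change of 0.54 (SE 0.09, adjusted p = 0.00089). Usp14 and Uchl5, the deubiquitinases that bind the regulatory particle and trim chains, were both lower at their brightest probe set. Usp14 was at 843, 888 and 804 in differentiated and 1318, 1257 and 1400 in proliferating cells, a change of -0.64 (SE 0.10, adjusted p = 0.00062). Uchl5 was at 467, 482 and 558 in differentiated and 785, 713 and 662 in proliferating cells, a change of -0.51 (SE 0.12, adjusted p = 0.014). Averaged over all probe sets of the gene, Usp14 was at -0.29 and no longer passed, and Uchl5 turned to 0.19. The call of Uchl5 was also lost without differentiated replicate 1, differentiated replicate 2 or proliferating replicate 1. Sem1, a small lid subunit outside the naming rule, was at -0.12, and the unfoldase Vcp at 0.03. Neither passed.

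**Figure D5:**
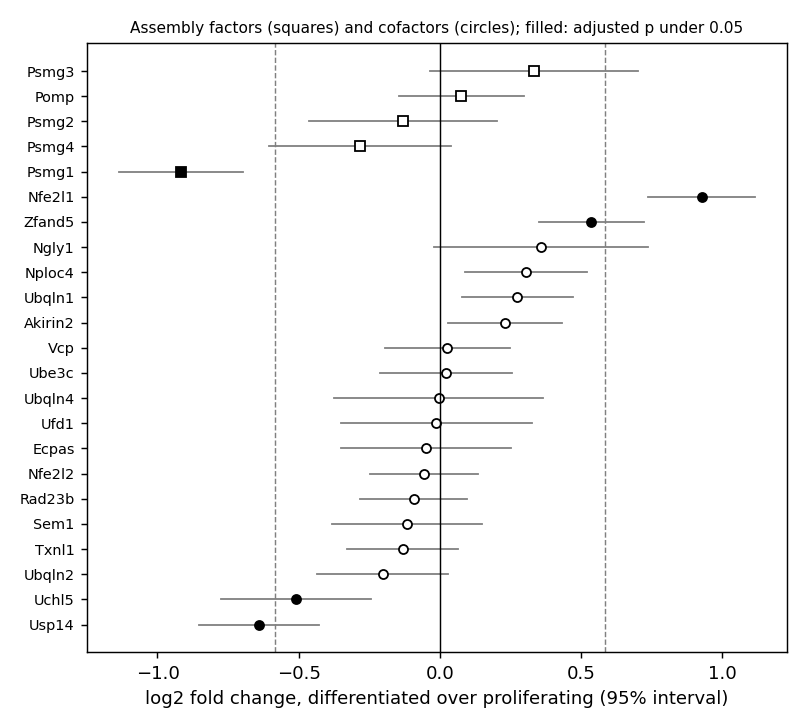
Log2 fold change (horizontal axis, differentiated over proliferating) with 95% intervals of 5 assembly factors (squares) and 18 cofactors (circles, vertical axis). Filled symbols have an adjusted p under 0.05; Psmg1 (-0.92), Usp14 (-0.64) and Uchl5 (-0.51) lie left of 0, and Nfe2l1 (0.93) and Zfand5 (0.54) right of it.

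Of 6 genes for ubiquitin and its activating enzymes only Uba6 was measured with a probe set of its own, and it did not pass, at -0.50 (limma adjusted p = 0.11). The interferon-inducible subunits replace Psmb5, Psmb6 and Psmb7 in the immunoproteasome. Psmb8 and Psmb9 lay at background on all 6 arrays. Psmb8 was at 1.90, 4.30 and 11.6 in differentiated and 8.30, 52.0 and 30.0 in proliferating cells, and Psmb9 at 43.3, 13.8 and 13.7 in differentiated and 41.0, 3.90 and 35.7 in proliferating cells. Psmb10 was at 348, 391 and 416 in differentiated and 349, 405 and 379 in proliferating cells, a change of 0.02 (adjusted p = 0.95).

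The calls of the 9 lower genes rested on small changes. Psma7 passed in all 6 fits that left out 1 array, and Psmd13 in 5 of 6. The other 7 passed in 1 to 3 of the 6. The call of Psma7 was lost with all its probe sets averaged and with plain _at probe sets alone. Without differentiated replicate 1 or 2 there were 2 and 3 lower genes, and without proliferating replicate 1 or 2 there were 3 and 4. With quantile normalization, 5 members were lower (Psma1, Psma7, Psmd3, Psmd5 and Psmd13) and 2 were higher (Psmc3 at 0.33 and Psmd6 at 0.29). The median of the core was then -0.11 and that of the regulatory particle 0.01. Without the trend in the variance model 0 members were called in either direction, when 1367 probe sets were called higher and 1302 lower over the whole array. The 1.5-fold limit depends on the scaling and the arrays: with scaling to the same median Psmd2 (-0.65), Psmd13 (-0.62) and Psma7 (-0.61) passed it, as did Psmd2 without proliferating replicate 3 (-0.63) and Psmd13 with all its probe sets averaged (-0.72). That Psmd13 average includes the dim probe set for which no single fold is given above. It also includes a set above background on 1 differentiated array alone.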

How the data were processed

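Pooled RNA was hybridized to 6 Affymetrix mouse whole-genome arrays. The authors deposited MAS 5.0 signals, a linear intensity for each probe set, whose trimmed mean, computed from the values, was 250.0 on each array. The later GCRMA step and its test need probe-level data and were not repeated. After 64 Affymetrix controls were removed, log2(signal + 15) of 45037 probe sets entered a 2-sided test (lmFit and eBayes with trend, limma 3.58.1, R 4.3.3), and p-values were adjusted by the Benjamini-Hochberg method. The 95% intervals use the same moderated variance. Median signals were 68.0 to 81.4, and precision is limited by having 3 arrays a group. Of these probe sets 34945 are annotated to 1 gene, 932 to several, and 9160 are unnamed here.

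Every member may be named. By rule, signals on every array are given for members that pass, for the highest and lowest change of each subcomplex, for the brightest and dimmest member, and for members whose probe sets pass in opposite directions, as well as for up to 4 passing genes of each other list with the largest change and for the immunoproteasome genes. Other members and probe sets with full signals (Psmb5, Psmb6 and the sets of Psmc6, Psmd6 and Psmd13) were picked after their values were seen. Members and lists were chosen with earlier results of these data known. Promoter motifs were searched with Python 3.11.15 (pandas 2.3.3). The fit was tested on simulated data. Alternatives covered scaling, pseudocount, dim probe sets, variance model, the methods' regularized t-test (window 101, prior weight 10), pairing, single arrays, thresholds and probe set choice.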

Additional observations from a re-analysis of the deposited data

How the results depend on the processing

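Direction held for the 9 lower genes under each alternative that gave them a value, except Psma6 at 0.24 with all probe sets of a gene averaged. That Psma6 average includes a probe set at 0.79 that lay at background on all 6 arrays. Psmd14 has no plain _at probe set and had no value with plain _at probe sets alone. The counts of calls did move. The 9 lower members (4 core, 5 regulatory) became 5 (2 and 3) with quantile normalization, with 2 higher, both regulatory. They became 0 (0 and 0) with eBayes without trend, with the regularized t-test at the methods' p and 1.5-fold, and with 1.5-fold added to the adjusted p. The regularized t-test gave 9 lower after Benjamini-Hochberg adjustment. At an adjusted p under 0.01 there was 1 (1 and 0), and with the mean over all probe sets 5 lower (1 core) and 1 higher, regulatory. Of these 5, Psmd3, Psmd5 and Psmd14 have 1 probe set each, so averaging could not change their values. Among called genes with several probe sets, Psma1, Psma6, Psma7 and Psmd2 lost the call, and Psmb4 and Psmd13 kept it. With plain _at probe sets alone, chosen after the data were seen, there were 6 lower members, of which 2 were core. Among them Psmd13 was read at the dim probe set for which no single fold is given above. Leaving out single arrays gave 2 to 7 lower members (core 1 to 4, regulatory 1 to 4) and 0 higher, core medians of -0.29 to -0.11, regulatory medians of -0.09 to -0.05 and differences between them of -0.21 to -0.05, against -0.14 with all arrays.

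Of member probe sets 3 were higher and 10 lower. These became 0 higher with scaling to the same median, 0 and 1 with eBayes without trend, 6 lower with quantile normalization, 1 higher without _x_at and _s_at probe sets, 0 and 6 with plain _at probe sets, 1 lower with the regularized t-test and 1.5-fold, 1 and 1 with 1.5-fold added, 0 and 2 at an adjusted p under 0.01, and 0 to 2 higher and 4 to 9 lower without single arrays. Scaling to the same median moved the median of all probe sets by -0.10 and the split of calls from 2765 higher and 2894 lower to 1826 and 3586. It put the core median at -0.34 and the regulatory median at -0.20, so their difference stayed at -0.14.

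Of the assembly factors and cofactors 2 were higher and 3 lower. These became 5 higher with quantile normalization, 4 without dim probe sets, 1 and 1 with eBayes without trend, 1 higher with the regularized t-test and 1.5-fold, with 1.5-fold added or with plain _at probe sets, and 1 lower with the mean over all probe sets, with 2 to 3 lower and 2 higher without single arrays. Uba6 was called lower (1) with scaling to the same median, and without proliferating replicate 2, so 0 to 1 without single arrays. Psmb8 was called lower (1) with the regularized t-test and 1.5-fold, and 0 to 1 immunoproteasome genes without single arrays, although it lay at background.

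The arrays share replicate numbers, and the labels do not say whether same-numbered arrays were prepared together. Their deviations correlated at 0.01, 0.00 and 0.01, which gave no sign of pairing. Over all probe sets, many of them dim, such a correlation cannot settle the question. With the replicate block 6 members were lower, 3 of them regulatory, and Psmb4, Psmd3 and Psmd14 no longer passed.

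Small changes that did not pass also changed sign. Psma5 was at 0.013 with quantile normalization, 0.18 with plain _at probe sets, and between -0.245 and 0.067 without single arrays (0.067 without differentiated replicate 2, 0.0017 without proliferating replicate 2). Psmb1 and Psmd4 were at -0.077 and -0.087 with scaling to the same median. Without single arrays Psmb1 lay between -0.022 (without proliferating replicate 1) and 0.116, and Psmd4 between -0.036 (without differentiated replicate 3) and 0.105, with -0.0054 without proliferating replicate 1. Psmb10 was at -0.026 with the same 75th percentile, -0.112 with the same median, and between -0.031 (without differentiated replicate 3) and 0.093 without single arrays, with -0.029 without proliferating replicate 1. Psmb9, at background, was at 0.117 with a pseudocount of 1 and between -0.55 and 0.233 without single arrays. With the mean over all probe sets Psmf1 was at 0.32, a mean that includes a dim set at 0.79. Uchl5, which was called lower, turned to 0.19 under the same alternative. Beyond the dim probe set of Psma5, the cause of these shifts was not tested.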
